A study of Mus spretus with 8 samples.

Results

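The genes described here build, remodel or sense the extracellular matrix of the liver, or mark the stellate cells that make much of it. The rule took 42 gene symbols. The probe annotation named 41 of them, through 107 probes, among the 22471 genes of the array, and the remaining symbol was not analysed here. Connective tissue growth factor (Ctgf) carries its newer symbol Ccn2 in the annotation. The livers came from 8 male Mus spretus mice of the inbred SPRET/EiJ strain, a wild-derived mouse species kept as an inbred line, and the diets began when the mice were 7 weeks old. The control group (4 mice) ate a Harlan chow with corn oil. The DDE group (4 mice) ate the same chow with p,p'-DDE, a persistent breakdown product of the insecticide DDT, given in corn oil at 450 mg/kg of feed, and both diets lasted 30 days. Each liver was measured on its own 1-colour Agilent array, and each gene is given by its probe with the highest mean over the 8 arrays unless stated otherwise.

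Hepatic stellate cells sit between the sinusoid and the hepatocytes and store vitamin A when quiescent. On injury they can take on a contractile, matrix-making state, driven mainly by transforming growth factor beta and platelet-derived growth factor, and then make the fibrillar collagens that build up in fibrosis. Plasma fibronectin, by contrast, is made mostly by hepatocytes and secreted into blood. Whole liver RNA comes mainly from hepatocytes, and in such bulk RNA fewer cells of a type and less RNA per cell cannot be told apart.

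All levels are log2 signals as deposited, on a scale whose highest value was 16. An array's background level, between 7.55 and 7.81, is the 0.95 quantile of its olfactory and vomeronasal receptor probes, genes not used in liver. Between 0.521% and 9.5% of an array's spots lay in stained patches, with the largest shares in control 4 and DDE 4. Control 1 stood apart in some smooth muscle genes, and its values are given beside the results that it touches. Hepatocyte markers had a mean level of 14.73 to 14.96 over the control arrays and of 14.64 to 14.96 over the DDE arrays, with 0 of 8 past the threshold. The control means of 5 of these 8 lay within 0.5 of the top of the scale, which limits what they can show. For sinusoidal endothelium these ranges were 9.49 to 9.95 and 9.55 to 9.71 (0 of 9). They were 8.53 to 9.71 and 8.86 to 9.23 for Kupffer cells and macrophages (0 of 10), 8.26 to 9.67 and 8.24 to 8.55 for T, B and NK cells (0 of 8, with Cd79a, Ms4a1 and Ncr1 at or below background on every array), and 7.48 to 8.93 and 7.37 to 7.53 for cholangiocytes (0 of 5, with Cftr at or below background on every array). Stellate cell and fibroblast markers, most of them among the genes described below, had ranges of 8.48 to 8.87 and 8.74 to 9.17. Of these, 1 of 10 (Reln) passed, and Hgf was at or below background on every array. Their DDE range includes a stained spot of Des in DDE 4. Stained spots enter other ranges as well. The highest control mean of T, B and NK cells, in control 2, includes Cd3g (10.98) and Cd8a (11.58). That of cholangiocytes includes Sox9 (13.68), and that of endothelium Tek (11.36) and Fcgr2b (11.91), all in control 4. The highest DDE mean of Kupffer cells and macrophages includes Adgre1 (11.53) in DDE 2. The part of other cell types in the results below was not tested.

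Fibronectin fell about 3-fold after DDE, and most of the matrix and stellate cell genes did not pass the test. Of the 41 genes, 2 rose (Reln and Tgfbr1), 1 fell (Fn1) and 38 did not pass limma's test at an adjusted p of 0.05. Over all 22471 genes, 3.35% passed in the same test, 2.58% as higher and 0.774% as lower, and over all 42957 probes 3.0% passed. With 3 calls among 41 genes, the share is not read as differing from that background. Unadjusted p-values under 0.05 were found for 8 members on the higher and 5 on the lower side, beside 11.4% and 4.57% of all genes. The groups did not overlap for 6 members with higher and 3 members with lower DDE values, beside 8.48% and 4.06% of all genes. The median log2 change of the members was 0.12 and that of all genes 0.02, and the members' median was 0.25 without control 1. Many genes lay at background, and over the 8542 genes above it on all 8 arrays the median was 0.14. For the 22 such members it was 0.30. These medians were not tested. The count of 3 fell to 1 (Fn1) without control 2, without control 3 or without DDE 2. It was 2 without control 1 (Fn1 and Tgfb1), and it was 3 without control 4 and DDE 4 together (Fn1, Tgfbr1 and Timp2).

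Signal strength set what could be seen. Of the 41 genes, 22 were above background on all 8 arrays, 17 on some of them, and 2 (Col5a2 and Lox) on none. Among the 16 genes with several probes, 6 had 10 probes each (Acta2, Col4a1, Des, Pdgfra, Tgfb1 and Tgfb3). The probes of such a gene may be repeats of 1 sequence.

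**Figure D1:**
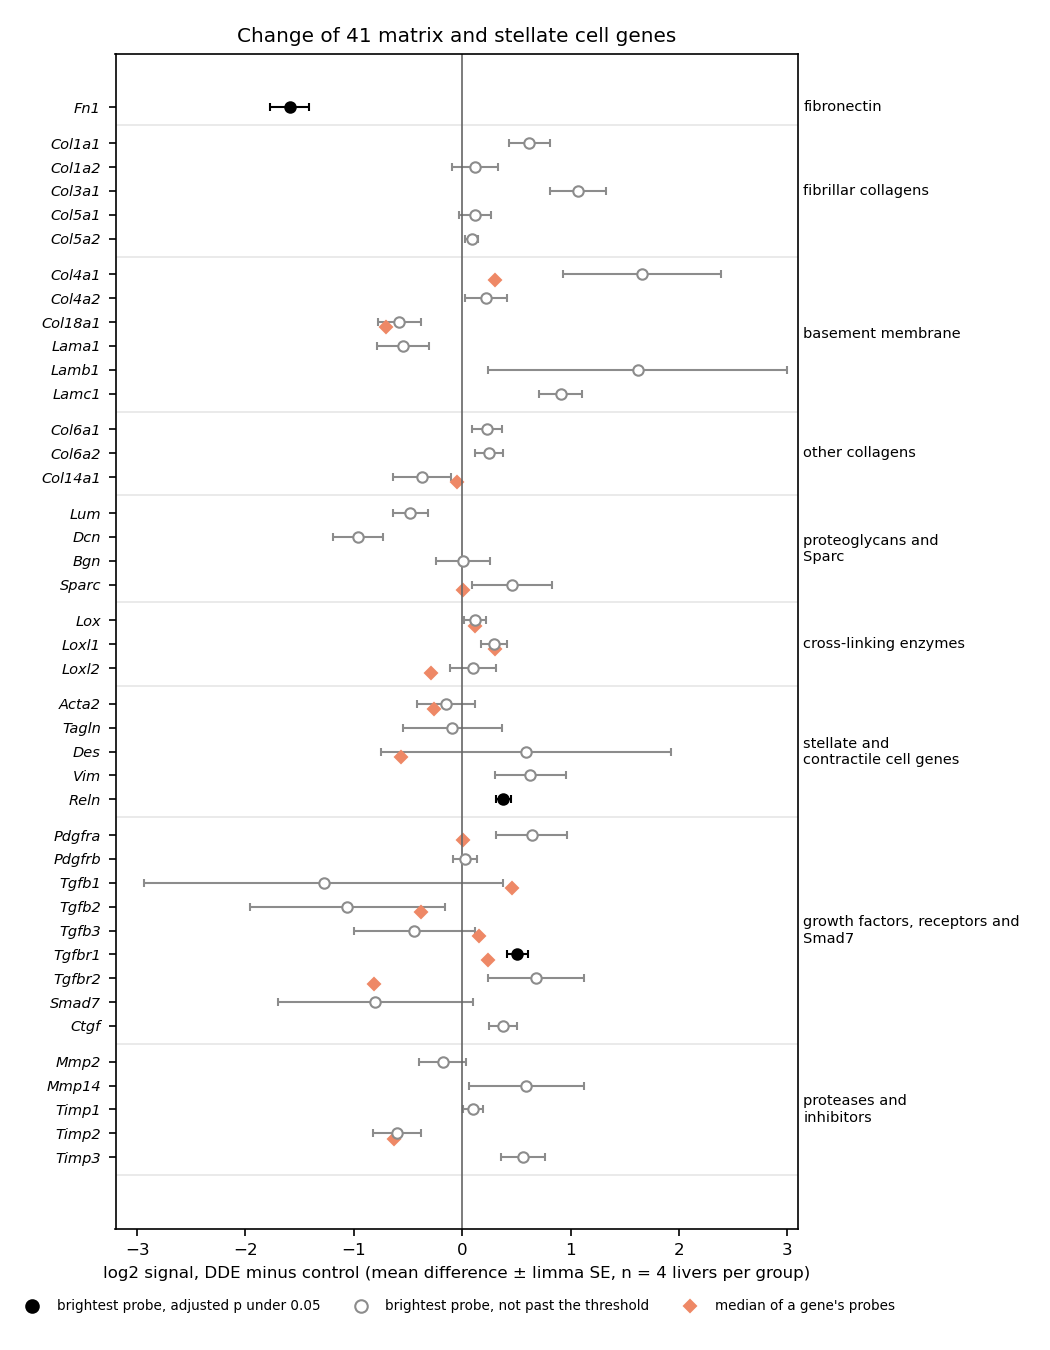
Difference in log2 signal between DDE and control livers (x axis, with the limma SE, n = 4 livers per group) for the 41 genes, grouped by role on the y axis. Filled circles mark the 3 genes past the adjusted threshold at their brightest probe, and diamonds give the change of the median over a gene's probes where it has several. Fn1 lies at -1.59, while most other genes lie near 0, and for Loxl2, Des, Tgfb1, Tgfb3 and Tgfbr2 the diamond lies on the other side of 0 from the circle.

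Fibronectin (Fn1, Entrez gene 14268) is the adhesive glycoprotein of plasma and of the early matrix. It had 15.22, 15.55, 15.23 and 14.90 in the 4 control livers and 13.86, 13.74, 13.24 and 13.70 in the 4 DDE livers. Every DDE liver lay below every control liver, by more than the spread within either group. The means were 15.22 ± 0.27 and 13.64 ± 0.27 (SD, n = 4 each), a log2 change of -1.59 (SE 0.18), or 3.01-fold lower (limma adjusted p = 0.0102). The change lay between -1.46 and -1.70 when any 1 array was left out, and it stayed past the threshold each time. The gene had 1 probe on the array, none of its 8 spots was stained, and isoforms of fibronectin were not told apart.

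Fibrillar collagens form the tension-bearing fibres of connective tissue, and none of the 5 passed. Col3a1, the chain of type III collagen, had 10.17, 9.47, 9.90 and 8.99 in the controls and 10.40, 10.87, 10.90 and 10.63 after DDE. The groups did not overlap, with every DDE liver higher. The log2 difference was 1.07 (SE 0.26), and it missed the threshold (limma adjusted p = 0.0877). Col1a1, a chain of type I collagen, had 9.24, 8.76, 8.80 and 8.32 in the controls and 9.25, 9.39, 9.57 and 9.39 after DDE. Control 1 came within 0.01 of the lowest DDE liver, and the difference was 0.62 (SE 0.19, adjusted p = 0.152). Its partner chain Col1a2 had overlapping values, 8.98 to 9.61 in the controls and 8.94 to 9.76 after DDE, with a difference of 0.12 (SE 0.21, adjusted p = 0.789). The minor chain Col5a1 was above background in 2 livers of each group (difference 0.12), and Col5a2 was below it in all 8.

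Basement membrane genes differed in direction, and none of the 6 passed. Col18a1, whose chain carries the endostatin fragment and which hepatocytes also make, had 14.52, 14.91, 14.23 and 14.16 in the controls and 14.05, 14.05, 13.48 and 13.91 after DDE. The DDE livers all lay lower, with a difference of -0.58 (SE 0.20, limma adjusted p = 0.222). Its other probe had a difference of -0.81 (adjusted p = 0.0898). Lamc1, the gamma chain shared by most laminins, had 8.76, 8.60, 8.21 and 8.41 in the controls and 9.42, 9.64, 8.89 and 9.66 after DDE. These groups did not overlap either, with a difference of 0.91 (SE 0.20, adjusted p = 0.0667), and the spot of DDE 4 was stained. With stained spots left out the difference of Lamc1 was 0.82 (adjusted p = 0.0934). It passed in 1 of 20 alternatives, without DDE 3 (1.08), with adjusted p from 0.0367 to 0.173 over them.

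The other laminin chains gave no such separation. Lamb1 had 8.24 to 8.85 in the controls and 8.68, 8.71 and 8.77 in 3 DDE livers, with 14.77 on a stained spot of DDE 4. Its difference of 1.62 (SE 1.38) was 0.11 with stained spots left out. Lama1 had 8.98, 9.29 and 9.91 in controls 1 to 3, more in control 4, and 8.76 to 9.13 after DDE, and its difference of -0.55 was -0.14 with the stained spots of control 3 and control 4 left out.

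Type IV collagen, the network former of basement membranes, was dim. At its brightest probe Col4a1 had 7.59 to 8.14 in the controls and 8.17, 8.64, 9.35 and 11.73 after DDE (difference 1.66, SE 0.73, adjusted p = 0.356). This difference was 0.90 without DDE 4, and 2.06 without the stained spots of control 4, DDE 2 and DDE 3. The median over its 10 probes gave 7.86 to 8.15 in the controls and 8.09 to 8.36 after DDE, a difference of 0.30 (SE 0.10, adjusted p = 0.171). The size at the brightest probe was thus not seen over its probes together. Col4a2 differed by 0.22 (adjusted p = 0.633).

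Among the other collagens 0 of 3 passed. Col6a1, a chain of the microfibrils around cells, had 8.99, 8.46, 8.71 and 8.39 in the controls and 8.84, 8.9, 8.98 and 8.75 after DDE. Its groups overlapped (difference 0.23, SE 0.14, adjusted p = 0.539). Its partner Col6a2 had 7.93, 7.37, 7.5 and 7.57 and then 7.84, 7.96, 7.71 and 7.87, and it was above background in 1 control liver and all DDE livers (adjusted p = 0.443). Col14a1, a collagen on the surface of fibrils, differed by -0.37 at its brighter probe and 0.27 at the other.

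The small leucine-rich proteoglycans bind collagen fibrils and set their spacing, and here 2 of the 3 had lower means after DDE. Decorin (Dcn), a stellate cell and fibroblast product with high signal here, had 12.95, 13.25, 13.39 and 13.14 in the controls and 12.39, 12.30, 12.61 and 11.58 after DDE. All DDE livers lay below all controls, DDE 4 the farthest. The difference of -0.96 (SE 0.23) missed the threshold with all arrays (limma adjusted p = 0.0767). It passed in 2 of 20 alternatives, without DDE 4 (-0.75) and with array weights (-0.84), with adjusted p from 0.0361 to 0.182 over them. Lumican (Lum) had 8.46, 8.06, 8.04 and 7.78 in the controls, all above background, and 7.56, 7.5, 7.9 and 7.45 after DDE, with 1 of 4 above background. Its difference was -0.48 (SE 0.16, adjusted p = 0.209), measured partly at background. Biglycan (Bgn) had nearly equal means (9.09 and 9.10), with DDE 4 lowest at 8.35. Sparc, a collagen-binding matricellular protein, differed by 0.46 at its brighter probe and by -0.44 at the other, and neither probe passed.

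**Figure D2:**
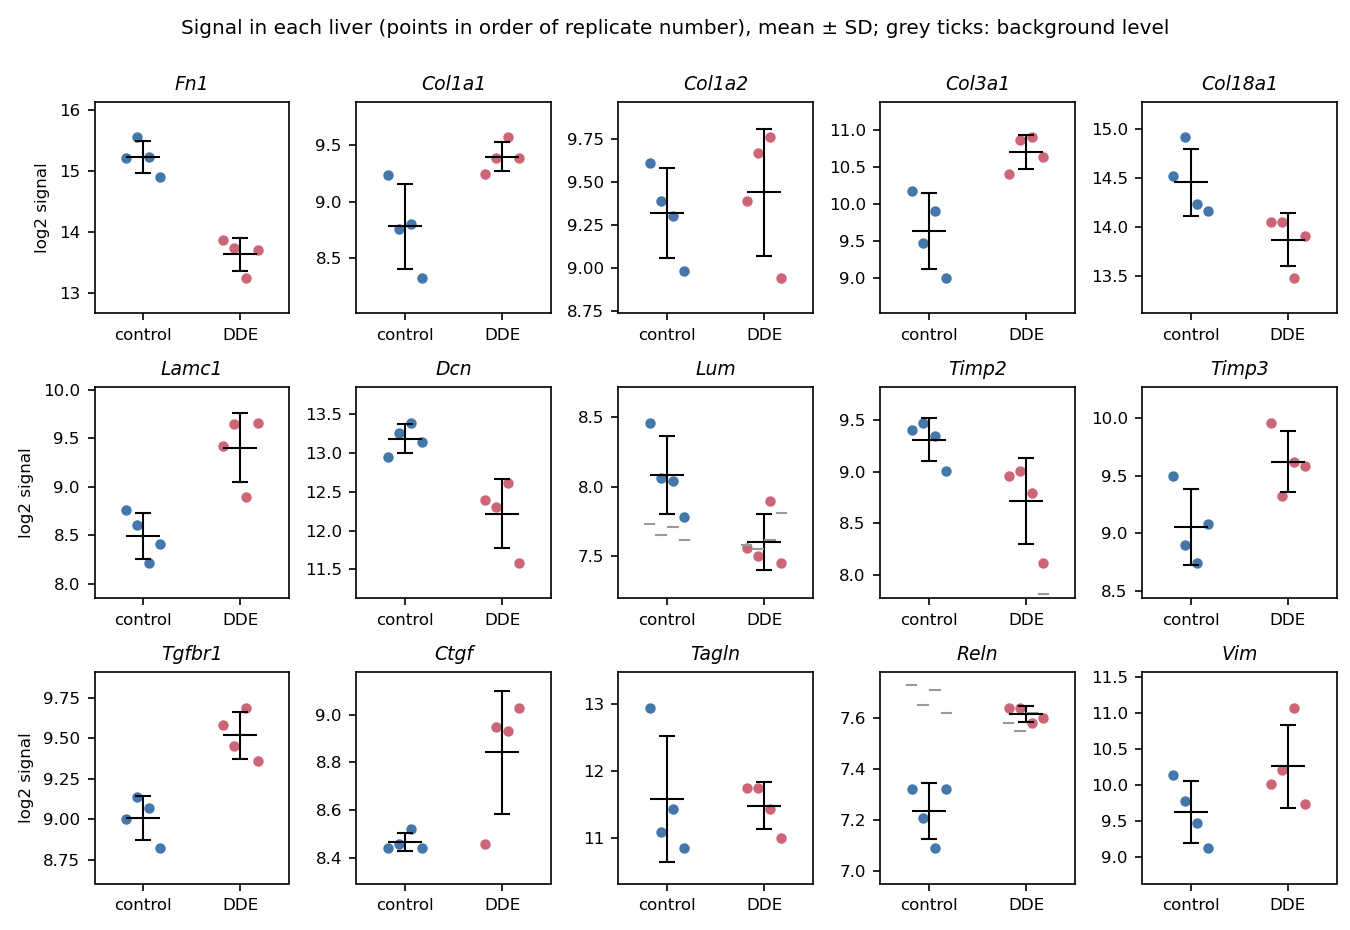
Log2 signal (y axes, each scaled to its gene) of 15 genes in the 4 control and 4 DDE livers, with mean ± SD as bars and each array's background level as a grey tick where it falls in range. The groups do not overlap for Fn1, Col1a1, Col3a1, Col18a1, Lamc1, Dcn, Tgfbr1 and Reln, of which Fn1, Tgfbr1 and Reln passed the adjusted threshold. Control 1 stands above the other 7 livers for Tagln.

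The lysyl oxidases cross-link collagen and elastin, and 0 of 3 passed. Lox was below background in every liver, with 7.30, 7.23, 7.26 and 7.10 in the controls and 7.38, 7.25, 7.19 and 7.56 after DDE. Loxl1 had 7.66, 7.56, 7.74 and 7.59 and then 8.07, 8.05, 7.99 and 7.61, above background in 1 control liver and 3 DDE livers (difference 0.29, adjusted p = 0.288). It passed in 1 of 20 alternatives, without DDE 4 (0.40), with adjusted p from 0.0325 to 0.522 over them. The second probe of Loxl1 did not separate the groups, with 7.51, 7.51 and 7.46 in DDE 1 to 3 against 7.29 to 7.79 in the controls, and 9.23 in DDE 4. Loxl2 differed by 0.10 at its brightest probe (adjusted p = 0.827), while its other 3 probes had lower means after DDE. The median over its 4 probes differed by -0.29 without overlap and did not pass (adjusted p = 0.216).

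Genes of stellate and contractile cells were divided among 1 that passed near background and 4 that did not pass. Reelin (Reln, Entrez gene 19699), which quiescent stellate cells express in mouse liver, had 7.32, 7.21, 7.09 and 7.32 in the controls and 7.64, 7.64, 7.58 and 7.60 after DDE. It passed the test as higher (0.38, SE 0.07, limma adjusted p = 0.0391). All 4 control values lay below background and 2 of 4 DDE values lay above it, so no fold change is given. The call was lost in 7 of the 8 fits that left out 1 array.

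Alpha smooth muscle actin (Acta2) and transgelin (Tagln) are the usual signs of the contractile state. At its brightest probe Acta2 had 8.60, 7.62, 7.73 and 7.86 in the controls and 8.27, 7.66, 7.93 and 7.35 after DDE (difference -0.15, SE 0.27, limma adjusted p = 0.797). Control 1 was the highest of the 8 livers at all 10 probes of Acta2. In the median over these probes the other livers had 7.35 to 7.66, close to background. At the brightest probe DDE 1 (8.27) lay clear of its background of 7.58. Some other smooth muscle genes were high in control 1, with 12.08 for Actg2 against 7.61 to 8.94 in the other controls. Their part in these values was not tested. Without control 1 the brightest probe differed by 0.07 (adjusted p = 0.894). Tagln had 12.94 in control 1, 10.85 to 11.44 in the other controls and 11.01 to 11.75 after DDE. Its difference was -0.09 (SE 0.46), and 0.36 without control 1 (adjusted p = 0.553).

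Desmin (Des), an intermediate filament of stellate and muscle cells, depended on the probe. At the probe with the highest mean it had 8.98, 8.50, 9.33 and 8.08 in the controls and 7.84, 7.93 and 7.81 in DDE 1 to 3, with 13.65 on a stained spot of DDE 4. This spot gave a difference of 0.59 (SE 1.34). The other 9 probes all had lower means after DDE. The median over the 10 probes was 8.88, 8.28, 8.28 and 8.30 in the controls and 7.71, 8.08, 7.78 and 7.91 after DDE. These did not overlap, and the difference of -0.56 (SE 0.16) did not pass (limma adjusted p = 0.124). Vimentin (Vim), the filament of most mesenchymal cells, had 10.14, 9.77, 9.47 and 9.12 in the controls and 10.01, 10.21, 11.07 and 9.73 after DDE, with DDE 3 on a stained spot (difference 0.63, SE 0.33, adjusted p = 0.466). Without DDE 3, or with stained spots left out, Vim differed by 0.36.

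Of the ligands and receptors of transforming growth factor beta, 1 receptor probe passed as higher, and the results for the ligands depended on the probe. Tgfbr1 (Entrez gene 21812), the signalling receptor kinase, had 9.0, 9.14, 9.07 and 8.82 in the controls and 9.58, 9.45, 9.69 and 9.36 after DDE. It rose 1.43-fold at this probe, without overlap between the groups (0.51, SE 0.10, limma adjusted p = 0.0486). The second probe of Tgfbr1 was below background in all 8 livers and differed by -0.03. The call of Tgfbr1 was lost in 7 of the 8 fits that left out 1 array, the exception being without DDE 4, with adjusted p from 0.0404 to 0.131 over them. It was lost as well with quantile normalization (adjusted p = 0.0525) and with the median of both probes (0.24, adjusted p = 0.255).

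Tgfb1 (Entrez gene 21803), the ligand, was misrepresented by its probe with the highest mean, which had 14.59 on a stained spot of control 1 against 7.26 to 7.32 in the other controls and 7.71 to 7.89 after DDE. That spot gave a difference of -1.28 (SE 1.66, adjusted p = 0.71). The other 9 probes all had higher means after DDE, and 4 of the 10 passed by themselves. The median over the 10 probes was 7.44, 7.28, 7.33 and 7.31 in the controls and 7.84, 7.94, 7.74 and 7.68 after DDE. The use of medians was chosen after the data were seen, and the mean of the 10 probes differed by 0.26 and did not pass (adjusted p = 0.617). The medians did not overlap and differed by 0.46 (SE 0.08, limma adjusted p = 0.0293), where 3.4% of all genes passed in the fit on such medians. They lay above background in 3 DDE livers and no control. With the values of both groups that lay below background raised to it, the fold was 1.11. Without control 1 the brightest probe differed by 0.54 (adjusted p = 0.0291).

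**Figure D3:**
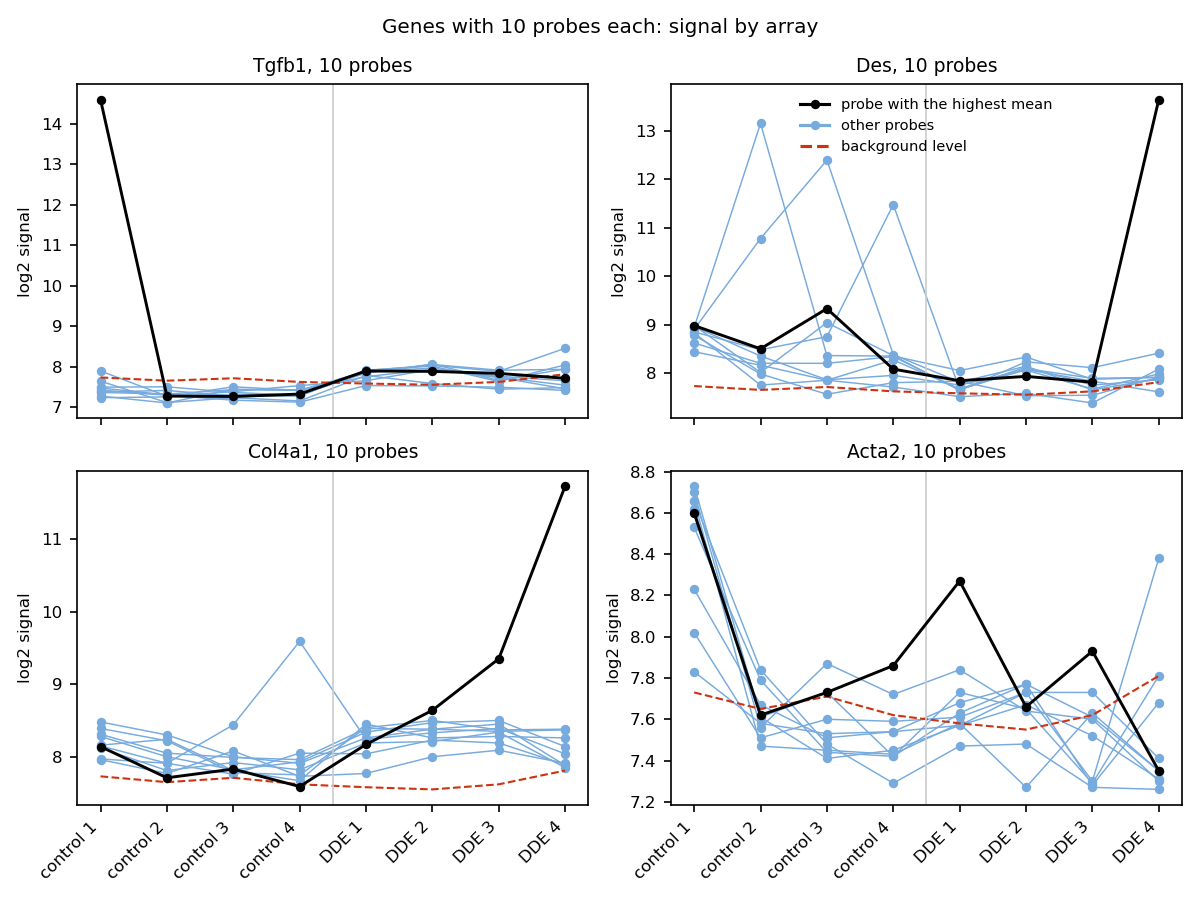
Log2 signal (y axes) of all 10 probes of Tgfb1, Des, Col4a1 and Acta2 on the 8 arrays (x axis), with the probe of highest mean in black and the background level as a dashed line. The black line is lifted by 1 spot for Tgfb1 (14.59 in control 1) and Des (13.65 in DDE 4). For Col4a1 it is highest in DDE 4 (11.73) and DDE 3 (9.35), and all 10 probes of Acta2 are highest in control 1.

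The remaining signalling genes did not pass. Ctgf, a matricellular protein and common target of this pathway, had 8.44, 8.46, 8.52 and 8.44 in the controls and 8.46, 8.95, 8.93 and 9.03 after DDE. DDE 1 lay among the controls and the other 3 above them (difference 0.38, SE 0.13, limma adjusted p = 0.205). It passed in 1 of 20 alternatives, without DDE 1 (0.51), with adjusted p from 0.0315 to 0.409 over them. Tgfb2 differed by -1.06, with 11.20 in control 2 and 7.05 to 7.37 in the other 7 livers, and Tgfb3 by -0.44 at the brightest and 0.16 over the median of its probes. The receptor Tgfbr2 differed by 0.68, with 10.35 in DDE 3 and 7.81 to 8.95 elsewhere, and its other probe by -2.31, with 13.16 in control 3 and 10.77 in control 4. The other probe of this receptor was below background in the remaining livers (7.24 to 7.44), and its spot of control 4 was stained. Its sign thus came from those control spots alone, and neither probe passed. The pathway's inhibitor Smad7 differed by -0.80, and by 0.17 with the stained spot of control 3 left out. The platelet-derived growth factor receptors were close to background. The median over the 10 probes of Pdgfra was below background in every liver and differed by 0.01, and Pdgfrb differed by 0.03.

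Of the matrix proteases and their inhibitors 0 of 5 passed. Timp2 had 9.41, 9.48, 9.35 and 9.01 in the controls and 8.96, 9.01, 8.79 and 8.11 after DDE, with control 4 level with DDE 2 (difference -0.60, SE 0.22, limma adjusted p = 0.244). Its second probe had a difference of -0.66. At the brighter probe it passed in 1 of 20 alternatives, without control 4 and DDE 4 (-0.49), with adjusted p from 0.0445 to 0.418 over them. Without DDE 4 alone the difference was -0.39 (adjusted p = 0.194). Timp3, an inhibitor that stays bound to the matrix, had 9.50, 8.90, 8.74 and 9.08 in the controls and 9.96, 9.32, 9.62 and 9.58 after DDE. Only control 1 overlapped the DDE range (difference 0.56, SE 0.20, adjusted p = 0.22). Timp1, an inhibitor that often rises in injured liver, had 7.47, 7.44, 7.32 and 7.27 and then 7.66, 7.40, 7.47 and 7.35, above background in 1 DDE liver and no control (difference 0.10, adjusted p = 0.633). The gelatinase Mmp2 differed by -0.18 and its activator Mmp14 by 0.59, or by 0.03 without the stained spot of DDE 4.

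Fibronectin was then set against collagen and stellate cell genes within each liver, to ask whether its change differed from theirs. The log2 signal of Fn1 minus that of Col1a1 was 5.98, 6.79, 6.43 and 6.58 in the controls and 4.61, 4.35, 3.67 and 4.31 after DDE. It was lower in all DDE livers than in all controls, with a change of -2.21 (SE 0.26). Fn1 minus Col3a1 was 5.59 ± 0.48 in the controls and 2.93 ± 0.47 after DDE (SD, n = 4 each), a change of -2.66 (SE 0.34). For both collagens the two-sided exact permutation test gave p = 0.0286, the smallest that 4 against 4 livers allow, and an adjusted p of 0.0571 over the 4 pairs compared. The adjusted values therefore missed the threshold, although no liver of the DDE group reached a control. This separation was already set by the single genes, since Fn1 was lower and both collagens were higher in every DDE liver. The tests of these 2 pairs thus add no support to those results.

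Decorin gave a smaller contrast. Fn1 minus Dcn was 2.27, 2.30, 1.84 and 1.76 in the controls and 1.47, 1.44, 0.63 and 2.12 after DDE, a change of -0.63 (SE 0.34, exact permutation p = 0.0857, adjusted p = 0.0857). DDE 4, the liver with the lowest Dcn, lay within the control range. Fn1 minus Des changed by -2.17 (SE 1.46, exact permutation p = 0.0571, adjusted p = 0.0762), a size set by the stained Des spot of DDE 4. With the median over the Des probes, a setting added after seeing the data, it changed by -1.03 (SE 0.25, exact permutation p = 0.0286, adjusted p = 0.0381). This adjusted value depends on the Col1a1 and Col3a1 pairs, which share that smallest p and were already set by the single genes. No conclusion is drawn from it. At the Des probe with the highest median, Fn1 minus Des changed by 0.07, where a stained spot of control 2 (13.16) enters.

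**Figure D4:**
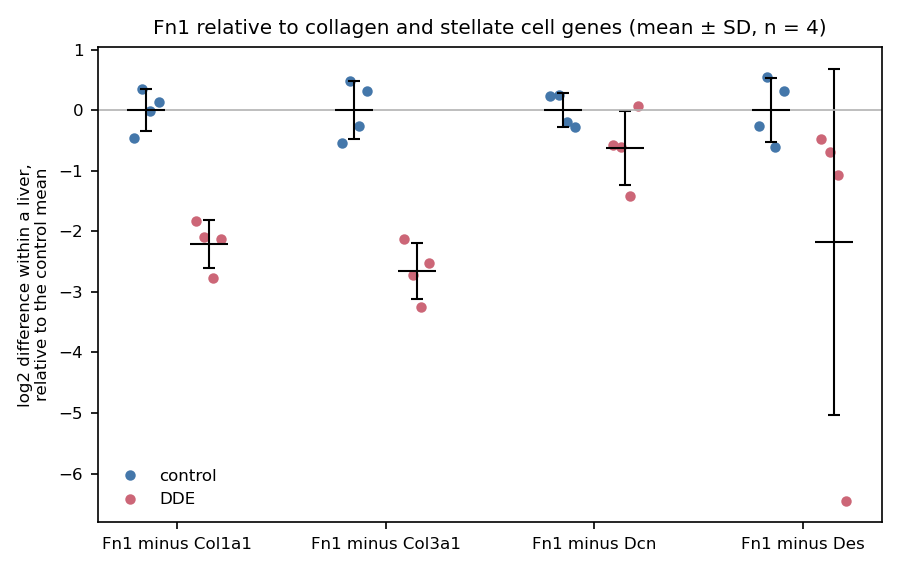
Log2 signal of Fn1 minus that of Col1a1, Col3a1, Dcn or Des within each liver, relative to the control mean (y axis), for 4 control and 4 DDE livers with mean ± SD. For Col1a1 and Col3a1 the DDE livers all lie below the controls, with mean changes of -2.21 and -2.66, while for Dcn DDE 4 lies within the control range and for Des DDE 4 lies far below the rest.

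Of 141 other genes of the same processes in 8 lists, 2 rose and 1 fell, a share of 2.13% beside the 3.35% of all genes. Unadjusted p-values under 0.05 were found for 13.5% of them on the higher and 7.09% on the lower side, beside 11.4% and 4.57% of all genes. Of 15 further stellate cell markers 0 passed. Of these, 4 had higher and 1 lower means with unadjusted p-values under 0.05, and the median change was -0.02. The smallest p was that of Cxcl12, a chemokine, with 13.83 ± 0.15 in the controls and 13.31 ± 0.22 after DDE (limma adjusted p = 0.095). Gfap and Hgf were at or below background on every array. Of 16 genes that fold and process collagen, 1 rose and 0 fell, with a median change of -0.10. It was Crtap, a part of the prolyl 3-hydroxylase complex, with 9.32 ± 0.32 in the controls and 10.16 ± 0.14 after DDE, or 1.79-fold (adjusted p = 0.0466).

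Scar and activation genes were mostly dim. Of 19, 0 passed. Of these, 2 had higher and 1 lower means with unadjusted p-values under 0.05, and the median change was 0.02, and 6 were at or below background on every array (Thbs2, Eln, Cthrc1, Col8a1, Col15a1 and Mmp3). Fbln1 had the smallest p in this list (0.65, limma adjusted p = 0.151). Of 27 further genes of transforming growth factor beta and bone morphogenetic protein signalling 0 passed. Of these, 4 had higher and 1 lower means with unadjusted p-values under 0.05 and a median change of 0.04. Ski, a repressor of Smad proteins, had the smallest p (0.33, adjusted p = 0.104), with all control values below background.

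Of 10 platelet-derived and other growth factors, 1 rose and 0 fell, with a median change of 0.02. This was Vegfa, the growth factor of endothelial cells, with 9.70, 9.64, 9.94 and 9.44 in the controls and 10.64, 10.87, 10.63 and 11.04 after DDE. It rose 2.17-fold without overlap (1.12, limma adjusted p = 0.0124). Among 21 integrins and other matrix receptors 0 passed. Of these, 2 had higher and 3 lower means with unadjusted p-values under 0.05, and the median change was 0.11. Itga1, a collagen-binding integrin, had the smallest p (-0.45, adjusted p = 0.0749). Of 15 further laminins, nidogens and related genes 0 passed. Of these, 2 had higher and 0 lower means with unadjusted p-values under 0.05, and the median change was -0.07. The smallest p was that of Hspg2, the gene of perlecan (0.48, adjusted p = 0.226).

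Among 18 plasma matrix and clot proteins that hepatocytes make, 0 rose and 1 fell, with a median change of -0.18. It was Itih3, a heavy chain that binds hyaluronan, with 15.53 ± 0.25 in the controls and 14.21 ± 0.33 after DDE, or at least 2.50-fold lower (limma adjusted p = 0.0214). Its fold is given as a lower bound because the control means of 12 of the 18, Itih3 among them, lay within 0.5 of the top of the scale. Vitronectin (Vtn), an adhesive plasma protein like fibronectin, had 15.65 to 15.94 in the controls and 15.77 to 15.99 after DDE, all close to that top. Of the fibrinogen chains only Fga lay clear of it (12.56 to 13.40 in the controls, 12.56 to 12.92 after DDE), with a difference of -0.27 (adjusted p = 0.625).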

How the data were processed

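Total liver RNA of 8 mice was labelled with Cy3 and hybridised to 1-colour Agilent arrays, per the labels' protocols. The deposited table gives log2 values normalized by the authors for 42957 probes. How the background was corrected, how arrays were normalized and which filters applied is not stated per the labels. The values were used as deposited, which leaves array stains in place.

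Probes were named by the supplied annotation table (33009 named, 9948 not). limma 3.58.1 (R 4.3.3) compared DDE with control at each probe by lmFit and eBayes, two-sided, with Benjamini-Hochberg adjustment over all probes and a threshold of 0.05. A gene was represented by its probe with the highest mean. A spot was stained where the median deviation in 7 rows by 5 columns went beyond 0.3. Background used 1634 receptor probes. The fits were tested on simulated data. Fn1 was compared with 4 genes by exact permutation tests.

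The members and lists were chosen with earlier results of these data known. Values of every liver are given for Fn1, members past the threshold, the 2 with the smallest p in each class, and 8 fixed genes. In the other lists the members past the threshold are named, or the 1 with the smallest p. Genes outside this rule were chosen after their values were seen. Alternatives changed the normalization, filters, variance model, arrays, stained spots and probe choice, and 2 (the median of a gene's probes and the probe with the highest median) were added after seeing the data. Probes made for laboratory mouse sequence may bind Mus spretus transcripts less well.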

Additional observations from a re-analysis of the deposited data

Results flagged for a closer look

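Among the 41 genes in 2 groups of 4 livers each (82 sets of values), 7 sets held a value far from the other 3 livers of its group, where chance gives about 1 in 20. Of these values 5 lay in stained patches of the array. They were Lamb1 in DDE 4 (14.77, against 8.68 to 8.77), Des in DDE 4 (13.65, against 7.81 to 7.93), Tgfb1 in control 1 (14.59, against 7.26 to 7.32), Smad7 in control 3 (11.85, against 7.68 to 8.21) and Mmp14 in DDE 4 (9.72, against 7.41 to 7.54). The other 2 spots were not marked as stained. They were Tgfb2 in control 2 (11.20, against 7.20 to 7.37) and Bgn in DDE 4 (8.35, against 9.30 to 9.43), the only 1 of the 7 that was low.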

How the results depend on the processing

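Fn1 kept its direction under all 20 alternatives and its call under 19 of them (limma adjusted p from 0.00631 to 0.0705), with a change of -1.59 and no call with the replicate number as a block (adjusted p = 0.0705). The labels do not say whether equal numbers pair the livers. Correlations of deviations between equal numbers were small (-0.008 to 0.083) but highest with the own number for 3 of 4, so pairing was not settled. The block left 13 members at an unadjusted p under 0.05, called 0 members and called 9 probes, where 1289 probes were called without it. Other probe counts were 511 with an intensity trend and robust variance, 2140 with array weights, 332 to 1596 without any 1 array and 1708 without control 4 and DDE 4. Of the members, 1 was called with an intensity trend and 1 without the dimmer part of the probes, both times Fn1, and 1 to 4 without 1 array. The members' median ran from 0.09 to 0.25 without 1 array. With the mean or the median of a gene's probes, the adjusted exact permutation p was 0.0381 for Fn1 minus Col1a1 (-2.21), Col3a1 (-2.66) and Des (-0.86 and -1.03). The Des probe with the highest median reversed that pair (0.07, adjusted p = 1.0). With pairs of livers these tests cannot go under 0.125. For the Col1a1 and Col3a1 pairs the separation tested followed from the single genes, and the adjusted value of the Des pair depends on theirs. Tgfb1 reversed to 0.54 with stained spots left out and to 0.46 with the median of its probes, and it ran from -1.90 to 0.54 without 1 array, the latter without control 1. Values near background and near the top of the scale limit what could be measured.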

Other observations

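Control 1 differed from the other livers in some of the smooth muscle genes chosen after the data were seen. Actg2, an actin of visceral smooth muscle, had 12.08 in control 1 and 7.61 to 8.94 in the other controls, with 7.98 to 8.32 after DDE. Cnn1, the calponin of smooth muscle, had 11.05 in control 1 against 7.86 to 8.80 in the other controls, and Myl9, a myosin light chain, had 12.35 against 9.87 to 10.95. Control 1 was the highest of the 8 livers for 5 of the 8 genes looked at, but not for Myh11, Lmod1 and Synpo2. It was the highest for 12.5% of all genes above background on every array. These shares cannot be compared, since the 8 genes were chosen after the data were seen. The bile duct keratin Krt19 had 12.12 in control 1 and 7.69 to 8.80 in the other controls. Of the 5 cholangiocyte markers, 2 (Krt19 and Krt7) were highest in control 1, while Sox9, Epcam and Cftr were not. Control 1 was also the highest for 8 of 10 markers of Kupffer cells and macrophages. For each of the fibrillar collagens it was the highest control, though within the range of the other livers with the DDE group included. Leaving control 1 out gave differences of 1.25 for Col3a1 (limma adjusted p = 0.0643) and 0.77 for Col1a1 (adjusted p = 0.0608).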
